A study of Mus musculus with 8 samples.

Results

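The 8 genes described here are the members of the endothelin and angiotensin systems named for this work and found by symbol among the 31053 gene IDs of the deposited matrices: the ligands Edn1 and Edn3, the endothelin-converting enzyme Ece1, the endothelin receptors Ednra and Ednrb, the angiotensin precursor Agt, the angiotensin-converting enzyme Ace and the angiotensin receptor Agtr1a. All 8 were found, each as 1 gene ID. They were counted as unique molecular identifiers (UMIs, 1 per captured RNA molecule) in single cells from the cortical plate of 8-week-old mice. The groups were Lama4-/- mice, which lack the laminin alpha 4 chain in every cell, Tek-Cre:Lama5-/- mice, in which Cre driven by Tek, a gene of endothelial-lineage cells, deletes the laminin alpha 5 chain, and for each of these its own wild type (WT). Each group was a pool of 3 brains and has 2 deposited libraries, so the spread between libraries leaves out the spread between mice and each comparison is one of pools. The 2 libraries of the Lama4 knockout (KO) hold identical values and were counted as 1, which leaves 7 distinct libraries and no test for that KO.

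Endothelins are peptides that contract or relax vessels. Endothelial cells make their precursors, endothelin-converting enzymes cut them to the active form, the A receptor on vascular muscle raises calcium and drives contraction, and the B receptor in the brain is known best from astrocytes. In the angiotensin system, angiotensinogen is cut by renin and then by angiotensin-converting enzyme to angiotensin II, which acts on the type 1 receptor of vascular muscle, and in the brain astrocytes are the known source of angiotensinogen. Laminins alpha 4 and alpha 5 are chains of the basement membrane under brain endothelial cells.

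The libraries held 35479306 to 48314458 UMIs, and 47239 cells were kept. Any 2 libraries shared at most 22 cell barcodes among the kept cells. Cell classes were named from marker lists by clustering without the 8 genes and their pathway, and carry the suffix "-like" because the names were rebuilt here. Lama4 stood at 44.8 to 46.1 CPM (UMIs of a gene scaled to the same total number of UMIs in every library and class) in endothelial-like cells of its WT libraries and at 0.0596 CPM in the Lama4 KO library, while Lama5 stood at 42.1 and 42.8 CPM in its WT libraries and 22.3 and 24.5 CPM in the Lama5 KO libraries. The libraries of the Lama5 experiment stood apart from those of the Lama4 experiment in early response genes (Fos, Fosb, Jun, Junb, Egr1, Ier2, Atf3 and Dusp1, a list chosen after the results were known), which summed to 15168 to 16362 CPM in endothelial-like cells against 5710 to 5923 CPM. Levels are therefore compared within an experiment, and what separates the experiments cannot be told apart.

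Edn1 (ENSMUSG00000021367, GRCm38 chromosome 13, 42301476 to 42307990, plus strand), the main endothelin of vessels, was an endothelial gene in these cells. In endothelial-like cells it stood at 258 CPM in the lowest library, 386 in the median library and 456 in the highest of the 7, on the unscaled total of the class. Of the 6 classes with at least 50 cells per library, microglia-like cells were next, at 7.34 to 25.8 CPM, followed by astrocyte-like cells at 3.79 to 12.7 CPM. Edn3 (ENSMUSG00000027524, chromosome 2, 174760619 to 174784042, plus strand), the ligand that in development acts mainly through the B receptor, had the same leading class, with 104, 145 and 162 CPM as its lowest, median and highest endothelial-like library.

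Outside the larger classes, Edn3 was also counted in fibroblast-like cells, a class of 12 to 50 cells per library. In the Lama5 experiment these cells stood at 192 and 511 CPM in the WT and at 675 and 691 CPM in the KO. In the Lama4 experiment they stood at 4.69 CPM (3 UMIs) and 0 CPM in the WT and at 11.4 CPM (8 UMIs) in the KO. Ece1 followed the same split, with 205 to 497 CPM in fibroblast-like cells of the Lama5 experiment and 40.6 to 59.8 CPM in those of the Lama4 experiment. The fibroblast-like cells of the experiments thus differed in both genes, in WT and KO alike, and with 12 to 18 cells per library in the Lama5 experiment no test was made.

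Agt (ENSMUSG00000031980, chromosome 8, 124556534 to 124569706, minus strand), the precursor of all angiotensins, was an astrocyte gene. Its lowest, median and highest astrocyte-like library stood at 20.8, 62.7 and 269 CPM, and smooth muscle-like cells, the next of the 6 larger classes, reached 2.53 to 7.34 CPM. Of the small classes, neuron-like cells (180 in all) held 0 to 42.6 CPM and ependymal-like cells (305) 0 to 17.4 CPM. The wide range followed the experiment: every library of the Lama4 experiment (184, 229 and 269 CPM) was above every library of the Lama5 experiment (20.8 to 62.7 CPM).

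Of the enzymes, Ece1 (ENSMUSG00000057530, chromosome 4, 137862237 to 137965229, plus strand) was shared between the vessel wall and its lining. It stood at 422, 541 and 569 CPM (lowest, median and highest library) in pericyte-like cells and at 296, 310 and 344 CPM in endothelial-like cells, and these ranges did not overlap. Smooth muscle-like and astrocyte-like cells were lower, at 33.0 to 71.2 and 30.2 to 53.1 CPM. Ace (ENSMUSG00000020681, chromosome 11, 105967945 to 105989964, plus strand) stood at 18.6, 23.4 and 31.8 CPM in endothelial-like cells. Its highest level in a named class was in choroid plexus-like cells, the epithelium that makes cerebrospinal fluid, at 238 CPM (95% Poisson interval for counting error 220 to 256) in the 114 cells of the Lama4 KO library and 287 and 215 CPM in the 27 and 25 cells of its WT libraries. The Lama5 experiment held at most 6 such cells in a library.

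Among the larger classes, the endothelin receptors were highest outside the endothelial-like cells. Ednra (ENSMUSG00000031616, chromosome 8, 77663031 to 77724464, minus strand), the A receptor, stood at 161, 232 and 292 CPM in pericyte-like cells and at 143, 186 and 220 CPM in smooth muscle-like cells, ranges that overlap. In endothelial-like cells it had 0 to 8 UMIs per library. Smooth muscle-like cells fell into a cluster led by Rgs5, Tagln and Myl9 and a cluster led by Tagln, Myl9 and Myh11 with Pln and Lmod1. Ednra stood at 207 to 261 CPM in the libraries of the first and at 110 to 172 CPM in those of the second. Ece1 followed the same order, with 49.8 against 30.6 CPM over the libraries of the Lama4 experiment and 79.7 against 48.9 CPM over those of the Lama5 experiment. So did Ednrb, with 10.5 against 1.52 CPM and 12.98 against 1.84 CPM.

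Ednrb (ENSMUSG00000022122, chromosome 14, 103814625 to 103844402, minus strand), the B receptor, was led by astrocyte-like cells at 172, 321 and 345 CPM. Perivascular macrophage-like cells came next, at 82.9, 114 and 216 CPM, and pericyte-like cells reached 21.7 to 45.1 CPM. Of the small classes, ependymal-like cells held 98.9 CPM (364 UMIs in 305 cells). Neuroblast-like cells held 20.1 to 125 CPM over the libraries, and choroid plexus-like cells 0 CPM (1 cell) to 59.4 CPM. Endothelial-like cells stood at 5.13 to 13.5 CPM as a class, but a cluster of 17 endothelial-like cells led by Plvap and Esm1, genes of endothelium with fenestrae, stood at 601, 503 and 751 CPM in the Lama4 WT libraries and the KO library. It held 3, 2 and 12 cells there and none in the Lama5 experiment.

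Agtr1a (ENSMUSG00000049115, chromosome 13, 30336441 to 30382867, plus strand), the type 1a angiotensin receptor, had 64 UMIs in all kept cells. Of these, 40 were in the 146 cells of 1 unnamed cluster led by Col3a1, Ifitm1, Il34 and Vtn, in which 31 cells had a UMI. That cluster met markers of pericytes and of fibroblasts and was therefore left unnamed. Its level was 70.0 and 48.8 CPM in the Lama4 WT libraries (15 UMIs each) and 43.4 CPM in the Lama4 KO library (7 UMIs), with 0 to 2 UMIs in each library of the Lama5 experiment. The same cluster held Ednra at 201 CPM over all libraries, near the level of pericyte-like cells, and no UMI of Ace or Agt. Pericyte-like, smooth muscle-like and endothelial-like cells had 0 to 4 UMIs of Agtr1a in any library.

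**Figure D1:**
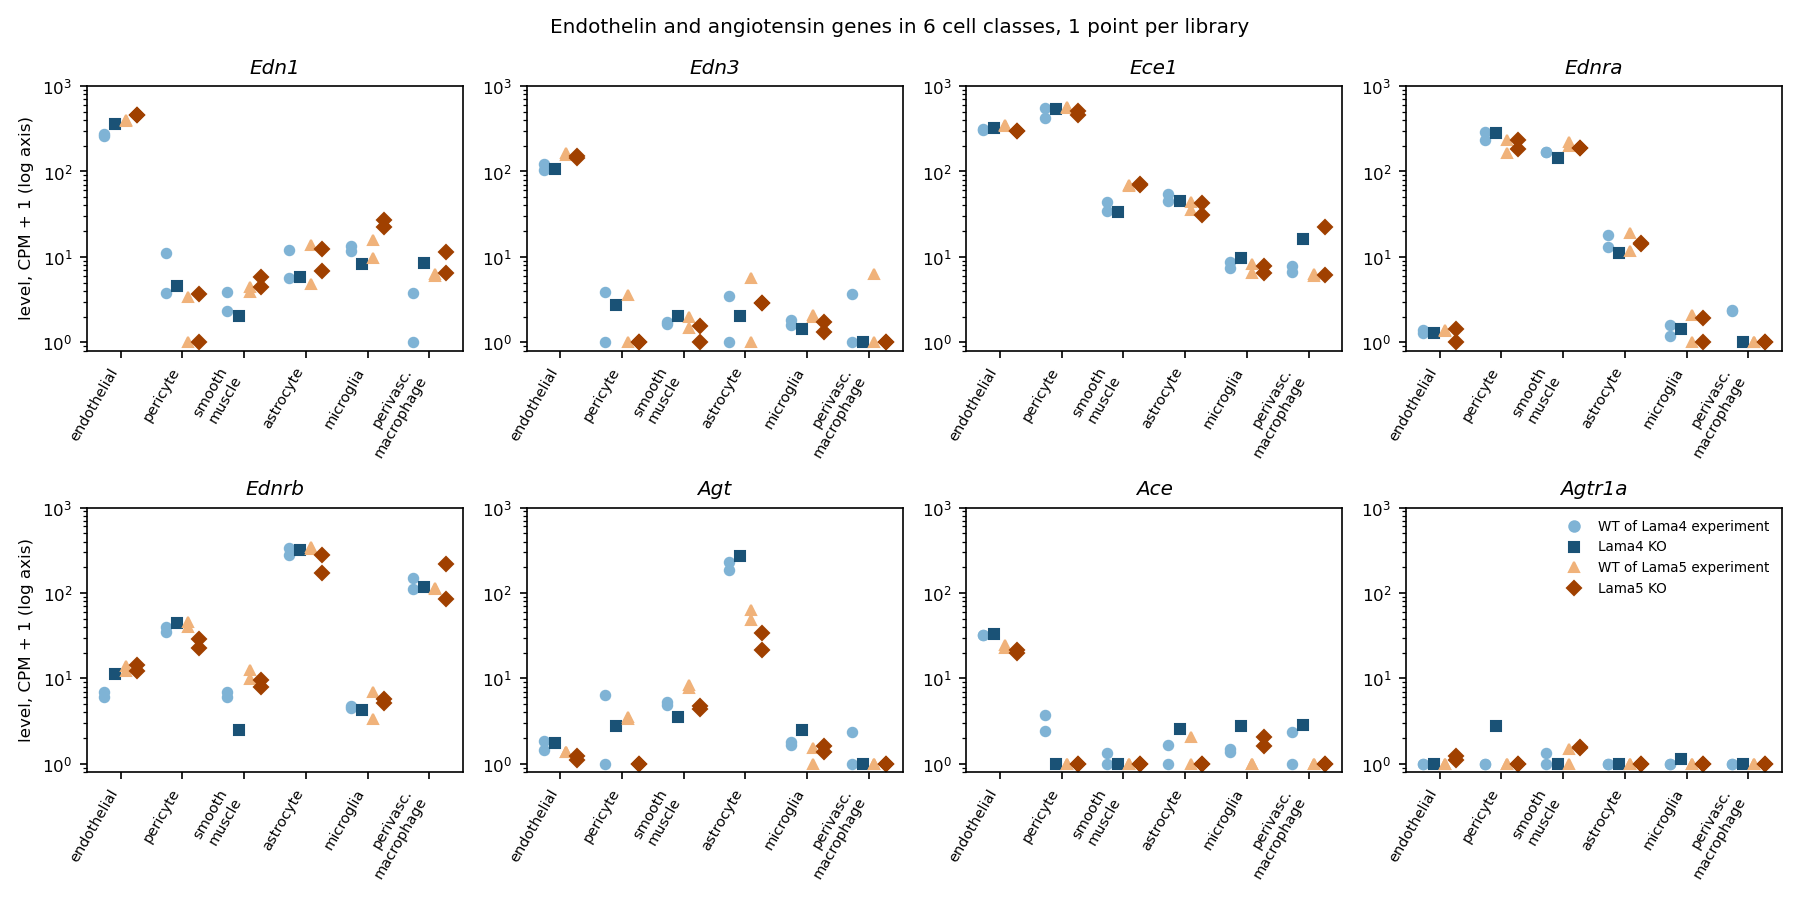
Level of each gene (CPM on the unscaled class total, plus 1, log axis) in the 6 cell classes that hold 50 cells or more in each library; each point is 1 library, coloured by group. Edn1, Edn3 and Ace are highest in endothelial-like cells, Ece1 in pericyte-like cells and Ednrb (in 6 of 7 libraries) and Agt in astrocyte-like cells, Ednra overlaps between pericyte-like and smooth muscle-like cells, and Agtr1a stays below 2 CPM in all 6.

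The leading class was compared with the second class of each gene on log2(CPM + 1), paired by library, over the same 6 classes (exact two-sided sign-flip permutation test over 7 libraries, for which 0.0156 is the smallest p, adjusted over the 8 genes). The leading class was picked as the highest in the mean of these same values, so the direction of the lead was fixed in advance. The p-values describe how steady the lead was over libraries, and the 7 libraries came from only 4 pools. The lead passed for 6 of the 8. The share of all genes that would pass the same test was not counted, so this count is not set against a background. Edn1 led in endothelial-like over microglia-like cells by 4.67 ± 0.53 (mean and SD, n = 7, higher in 7 of 7 libraries, exact adjusted p = 0.025). Edn3 led there over astrocyte-like cells by 5.86 ± 0.96 and Ace over microglia-like cells by 4.08 ± 0.56, each in 7 of 7 libraries with the same exact adjusted p. Agt led in astrocyte-like over smooth muscle-like cells by 3.95 ± 1.64, and Ece1 in pericyte-like over endothelial-like cells by 0.70 ± 0.14, both also in 7 of 7. For Ednrb, astrocyte-like cells exceeded perivascular macrophage-like cells by 1.21 ± 0.71 in 6 of 7 libraries (exact adjusted p = 0.0417).

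For Ednra, pericyte-like cells were above smooth muscle-like cells by 0.33 ± 0.45 in 5 of 7 libraries (exact adjusted p = 0.107), and for Agtr1a no class led (0.11 ± 0.75, exact adjusted p = 0.75). Among these 6 classes, then, the ligands and Ace were highest in endothelial-like cells, the A receptor in mural cells, and the B receptor and angiotensinogen in astrocyte-like cells. Outside them, choroid plexus-like cells exceeded endothelial-like cells in Ace, and fibroblast-like cells of the Lama5 experiment did so in Edn3.

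Within endothelial-like cells, 3 clusters met at least 8 of 10 arterial genes (Bmx, Gkn3, Sema3g, Vegfc, Efnb2, Mgp, Fbln5, Hey1, Stmn2 and Clu) at 2-fold of the median endothelial cluster. They are led by Gkn3 with Igfbp3, Bmx with Fbln5 and Mgp, or Vegfc, and held 13.1% to 14.4% of endothelial-like cells in the Lama4 experiment and 24.97% to 27.2% in the Lama5 experiment. These shares depend on the cutoff. A cluster led by Srarp, Gm9946 and Sox18 met 6 of the 10 genes and was counted with the other endothelial-like cells. It held 680, 672 and 785 cells in the libraries of the Lama4 experiment and 59, 40, 8 and 10 in those of the Lama5 experiment. The Gkn3 and Igfbp3 cluster held 19, 18 and 27 against 899, 866, 780 and 775. Clusters and cells are grouped by other genes here, and what follows is a description without a test. Edn1 stood at 568 to 753 CPM in these arterial-marker clusters against 164 to 387 CPM in the other endothelial-like cells of the libraries. Edn3 stood at 210 to 308 against 76.7 to 95.6 CPM, Ece1 at 357 to 407 against 263 to 315 CPM and Ace at 45.0 to 103 against 6.99 to 13.9 CPM. All 4 were higher in the arterial-marker clusters of each of the 7 libraries. Of the 12003 genes with a mean of at least 1 CPM, 19.6% were higher in all 7 and 39.7% kept 1 direction in all 7. Ace had the widest gap of the 8 genes, 6.46-fold on average, against 2.96-fold for Edn3, 2.36-fold for Edn1 and 1.27-fold for Ece1 (on log2(CPM + 1)).

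The arterial-marker clusters differed among themselves. Ace was concentrated in the cluster led by Gkn3, Fbln5, Bmx and Mgp, at 172 CPM in the Lama4 experiment and 94.9 CPM in the Lama5 experiment, and stood in the Lama5 experiment at 11.0 CPM in the cluster led by Gkn3, Igfbp3 and Bmx. Edn3 did not follow Ace. In the Lama5 experiment both of these clusters held Edn3 at 292 CPM. In the Lama4 experiment the Fbln5 and Mgp cluster held 55.2 CPM (95% Poisson interval 46.7 to 64.7) and the Gkn3 and Vegfc cluster 274 CPM (263 to 285), while Ace had the opposite order there, 172 against 76.4 CPM. The 2 clusters that met all 8 venous genes differed too: Edn1 stood at 401 CPM in the one led by Slc38a5, Fmo2 and Vwf, 2060 of whose 2096 cells came from the Lama5 experiment, and at 168 CPM in the one led by Lcn2 and Vwf, 644 of whose 648 cells came from the Lama4 experiment.

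**Figure D2:**
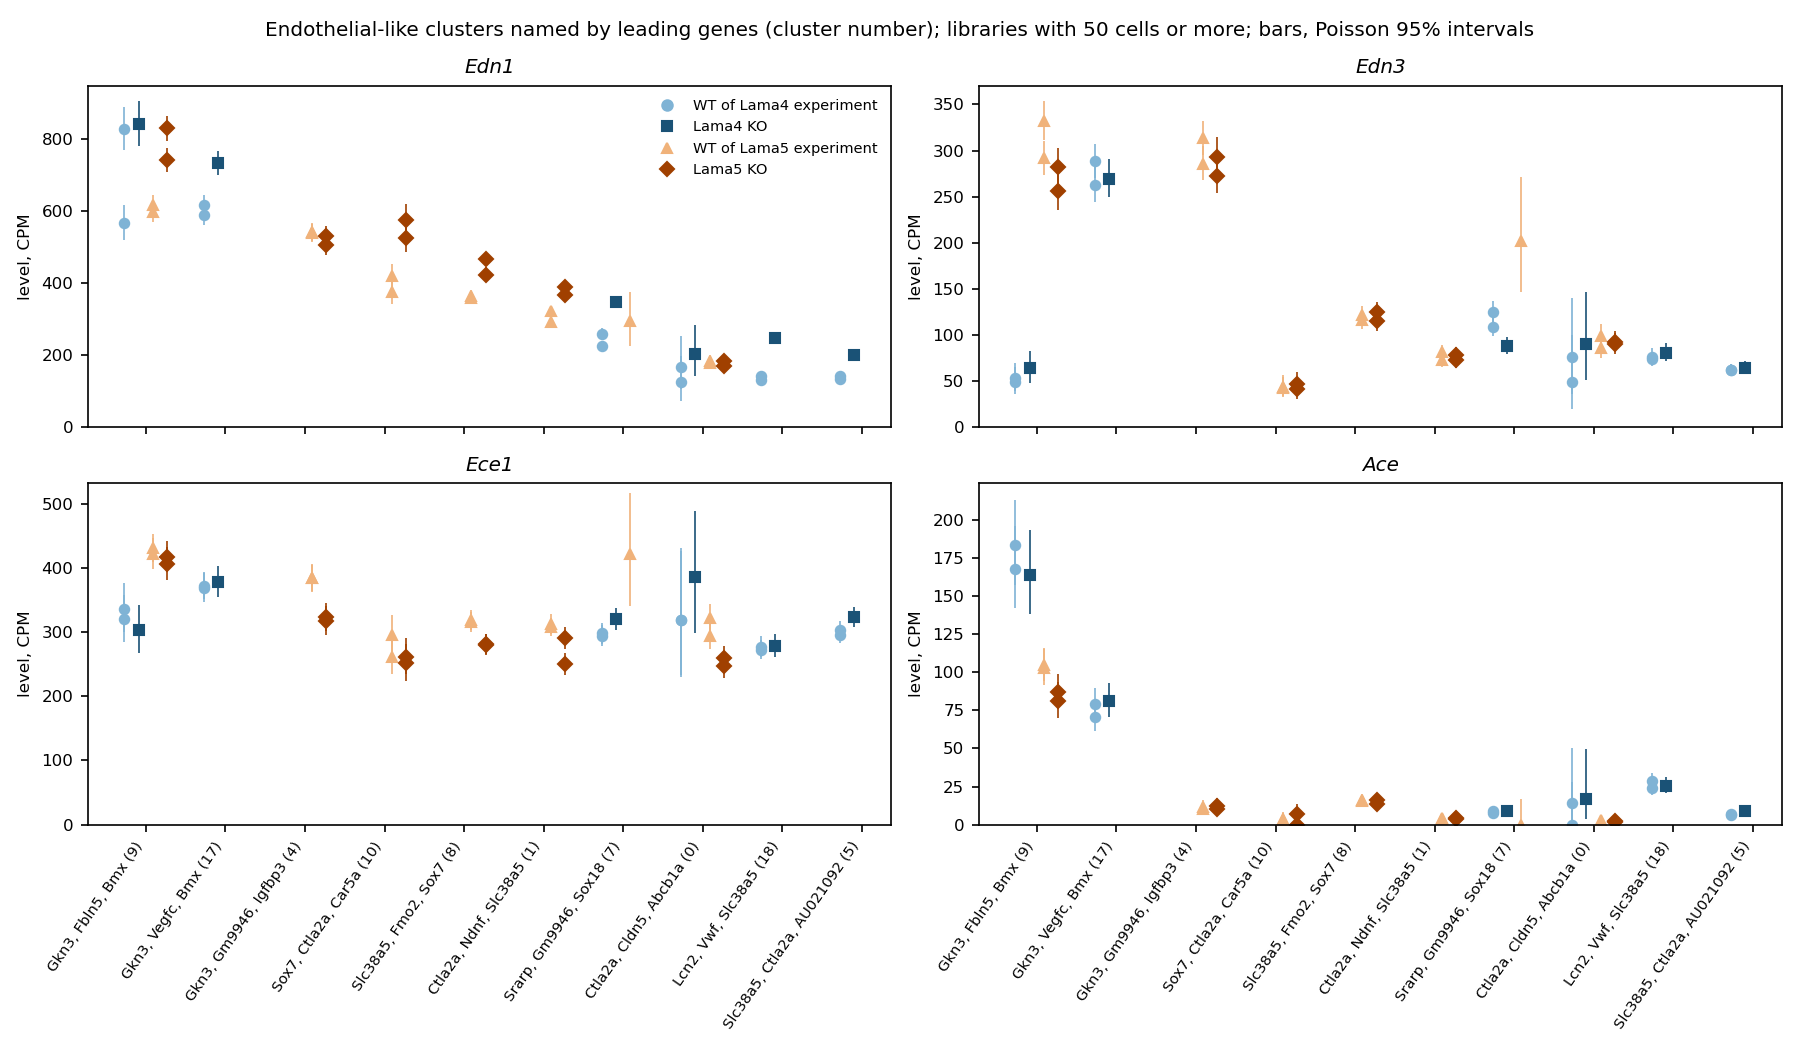
Level (CPM on the unscaled cluster total) of Edn1, Edn3, Ece1 and Ace in the endothelial-like clusters of 500 cells or more, named by leading genes other than Edn1 and Edn3; points are libraries with at least 50 cells in the cluster and bars are 95% Poisson intervals. Ace is highest in the Fbln5 cluster in each of the 7 libraries, and Edn3 there is 292 CPM in the Lama5 experiment but 55.2 CPM in the Lama4 experiment.

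Promoter sequences are given for the 3 genes led by endothelial-like cells, so that their start regions can be compared: the 250 bases before the RefSeq gene start, 5′ to 3′ on the gene's plus strand, at chr13:42301226-42301475 (Edn1), chr2:174760369-174760618 (Edn3) and chr11:105967698-105967947 (Ace, the first of its 2 listed starts) of GRCm38.p6. Capitals mark matches, on either strand, to 5 motifs: TGACTCA of AP-1, AGATAA of GATA factors, TGGGAA of RBPJ, AGGAAG of ETS factors and TATAAA, the TATA box. No match overlaps another here.
Edn1: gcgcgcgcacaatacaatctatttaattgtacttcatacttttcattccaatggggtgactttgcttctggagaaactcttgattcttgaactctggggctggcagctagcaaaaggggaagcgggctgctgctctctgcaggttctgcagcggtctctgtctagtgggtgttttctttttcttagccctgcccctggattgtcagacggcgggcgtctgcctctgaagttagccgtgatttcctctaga
Edn3: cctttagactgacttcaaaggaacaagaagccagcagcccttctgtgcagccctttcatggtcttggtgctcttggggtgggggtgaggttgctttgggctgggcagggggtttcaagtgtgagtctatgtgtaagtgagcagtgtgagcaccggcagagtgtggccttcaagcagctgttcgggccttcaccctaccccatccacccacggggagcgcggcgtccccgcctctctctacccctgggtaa
Ace: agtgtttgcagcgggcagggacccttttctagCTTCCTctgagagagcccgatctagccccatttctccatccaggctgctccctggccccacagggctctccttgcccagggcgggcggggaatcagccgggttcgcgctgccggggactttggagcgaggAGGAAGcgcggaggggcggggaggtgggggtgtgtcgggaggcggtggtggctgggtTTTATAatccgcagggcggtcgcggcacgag
In the Ace window the matches are 2 ETS strings, at -218 (minus strand) and -88 (plus strand), and a TATA string at -31 (minus strand), counted from the gene start. The Edn1 and Edn3 windows hold none of the 5, which says only that these letters are not in these 250 bases. Among 32817 listed promoters of this length, 29.5% hold the ETS string, 12.4% the TATA string, 21.6% the RBPJ string, 9.99% the GATA string and 4.46% the AP-1 string.

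In the Lama5 KO, endothelial-like cells had more Edn1 RNA and slightly less Ece1 RNA than their WT. On class totals scaled by TMM (a factor per library that centres most genes), Edn1 stood at 386 and 376 CPM in the WT libraries and at 467 and 467 CPM in the KO libraries. Both KO libraries were above both WT libraries, a lack of overlap that 56.8% of the 13151 genes tested showed in one direction or the other. The log2 fold change was 0.29 (SE 0.02, a 1.23-fold rise), with an adjusted p of 1.85e-11 in edgeR's quasi-likelihood test over all genes. Of the 5 members tested, 1 was higher and 1 lower, where 10.3% of all genes tested were higher and 8.21% lower (1350 and 1080 genes, and 773 and 2793 on totals without TMM).

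Ece1 stood at 335 and 327 CPM in the WT and at 306 and 305 CPM in the KO, so that it fell by 0.12 on the log2 scale (SE 0.02, adjusted p = 0.000642, edgeR). Within the arterial-marker clusters alone the Ece1 change was -0.07 and no longer passed (edgeR adjusted p = 0.352). Edn3 (158 and 152 against 148 and 153 CPM, log2 fold change -0.04, edgeR adjusted p = 0.435), Ednrb (0.09, adjusted p = 0.601) and Ace (22.8 and 21.3 against 19.04 and 20.95 CPM, -0.14, adjusted p = 0.198) did not pass. On totals without TMM the same test passed Edn3 (-0.12, edgeR adjusted p = 0.0063) and Ace (-0.22, adjusted p = 0.0271) as lower.

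The rise of Edn1 was present in and outside the arterial-marker clusters, with log2 fold changes of 0.27 and 0.34 in edgeR (adjusted p = 6.04e-08 and 3.12e-10). By cluster and on unscaled totals, it stood at 596 and 616 CPM in the WT against 740 and 828 CPM in the KO in the Fbln5 and Mgp cluster, and at 375 and 419 against 574 and 525 CPM in the cluster led by Sox7 and Car5a. In the cluster led by Gkn3, Igfbp3 and Bmx it was 542 and 539 CPM (WT) against 530 and 505 CPM (KO), the opposite order on unscaled totals. The fold changes above are on scaled totals. Over the class, TMM moved Edn1 from 396 and 386 to 386 and 376 CPM (WT). It moved the KO from 456 and 453 to 467 and 467 CPM. The order within that cluster was not checked on scaled totals. The early response genes, in a sum of CPM, were lower in the Lama5 KO (15457 and 15168) than in its WT (16316 and 16362), and their part in the result was not tested.

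Microglia-like cells of the Lama5 KO also had more Edn1. The WT libraries held 8.38 and 14.3 CPM (18 and 27 UMIs) and the KO libraries 26.5 and 22.0 CPM (81 and 59 UMIs), with no overlap, which 52.7% of the 9657 genes tested also showed. The log2 fold change was 1.12 (SE 0.24, edgeR adjusted p = 0.00157). It was the 1 member called of 3 tested, where 8.25% of all genes were higher and 4.73% lower, and the others, Ece1 (0.02) and Ednrb (0.19), did not pass. Without the first WT library the change was 0.77 and did not pass (edgeR adjusted p = 0.0637). Early response genes summed to 13343 and 12854 CPM (WT) against 10689 and 10820 CPM (KO) in these cells. Their part in the result was not tested. Microglia-like cells with an Edn1 UMI were 2.55% and 4.08% (WT) against 4.30% and 3.35% (KO), groups that overlap. With cells sampled down to 1000 UMIs the shares were 0.73% and 1.6% against 1.87% and 1.76%.

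Endothelial RNA in these cells was measured beside it. All 10 endothelial markers had UMIs in the microglia-like cells of each library, summing to 124 and 109 CPM (WT) and to 97.6 and 133 CPM (KO), groups that overlap. As a share of its endothelial-like level, Edn1 stood at 2.17% and 3.82% (WT) against 5.65% and 4.73% (KO), with no overlap. The highest of the 10 markers stood at 2.57% and 2.50% (WT) against 2.73% and 2.72% (KO). Edn3 in the same cells had 1 or 2 UMIs in each of these libraries.

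Astrocyte-like cells of the Lama5 KO had lower Ednrb and Agt as a class. Ednrb stood at 353 and 334 CPM in the WT and at 166 and 274 CPM in the KO (log2 fold change -0.65, SE 0.16, edgeR adjusted p = 0.00483). Agt stood at 64.1 and 48.2 CPM in the WT and at 20.1 and 32.4 CPM in the KO (-1.09, SE 0.31, edgeR adjusted p = 0.0138), from 59 and 50 UMIs against 11 and 17. The groups did not overlap for either gene, as for 58.1% of all genes tested. These were 2 of 3 members tested, both lower, where 9.86% of all genes were higher and 7.50% lower, and Ece1 (-0.15) did not pass. Without the first KO library neither passed (edgeR adjusted p = 0.163 for Ednrb and 0.159 for Agt), and without the first WT library Agt did not (0.105).

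The makeup of the class also differed between the groups. Astrocyte-like cells fell mainly into a cluster led by Aqp4, Cldn10 and Aldoc with a median of 6057 UMIs per cell and a cluster led by Gria2 and Rmst with a median of 1320. The first held 44.6% and 44.0% of the class in the WT libraries but 20.9% and 27.3% in the KO libraries. Over the class, early response genes summed to 3173 and 3519 CPM (WT) against 4618 and 4313 CPM (KO). Mitochondrial UMIs took 6.28% and 6.203% against 4.80% and 5.13%. Microglia markers in these cells summed to 335 and 378 CPM (WT) against 1829 and 1282 CPM (KO). Oligodendrocyte markers summed to 529 and 642 against 1894 and 1295 CPM, and the astrocyte markers to 20910 and 20657 against 15381 and 17024 CPM. The part of these in the lower Ednrb and Agt was not tested. In the Aqp4 and Aldoc cluster Ednrb stood at 432 and 396 CPM (WT) against 284 and 403 CPM (KO) (log2 fold change -0.20, edgeR adjusted p = 0.851). In the clusters under 3000 UMIs the change was -0.10 (edgeR adjusted p = 0.879). Both values were smaller than the -0.65 of the class, with few KO cells and a wide spread between KO libraries in the Aqp4 and Aldoc cluster. The part of the makeup in the class difference was not tested. Agt in the Aqp4 and Aldoc cluster stood at 76.6 and 59.7 CPM (WT) against 33.7 and 31.9 CPM (KO), a change of -0.99 that did not pass there (edgeR adjusted p = 0.412) with 7 and 8 UMIs in the KO libraries. In the Gria2 and Rmst cluster Agt stood at 24.05 and 10.9 CPM (WT, 6 and 3 UMIs) against 12.5 and 30.1 CPM (KO, 4 and 8 UMIs), so the groups overlapped.

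**Figure D3:**
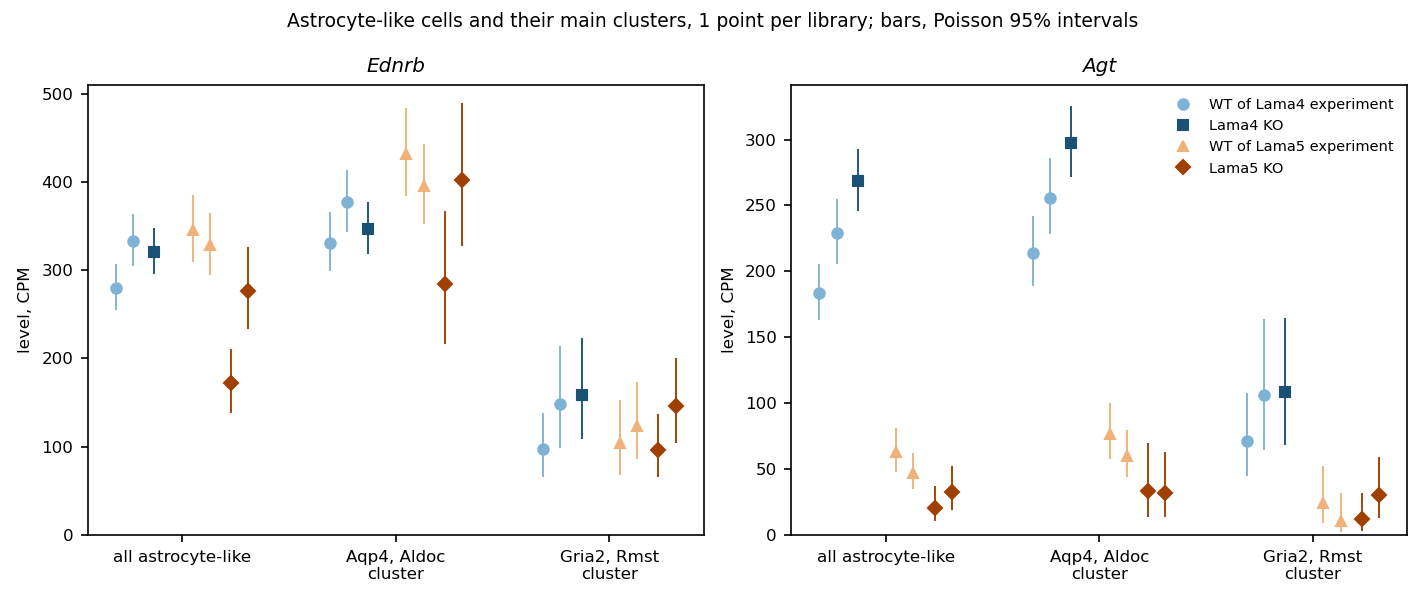
Level (CPM on unscaled totals) of Ednrb and Agt in all astrocyte-like cells, in the cluster led by Aqp4 and Aldoc and in the cluster led by Gria2 and Rmst; each point is 1 library and bars are 95% Poisson intervals. Within the Aqp4 and Aldoc cluster, Ednrb overlaps between the Lama5 KO (284 and 403) and its WT (432 and 396), and Agt is 33.7 and 31.9 in the KO against 76.6 and 59.7, a difference that did not pass there. In the Gria2 and Rmst cluster Agt overlaps (12.5 and 30.1 against 24.05 and 10.9).

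In mural cells of the Lama5 KO no member passed, of 3 tested in pericyte-like and 4 in smooth muscle-like cells. In pericyte-like cells 0.203% of all genes were higher and 0.0676% lower, and in smooth muscle-like cells 4.52% and 1.38%. Ednra stood at 227 and 159 CPM in the WT and 186 and 239 CPM in the KO of pericyte-like cells (log2 fold change 0.14, 95% normal interval -0.23 to 0.52). In smooth muscle-like cells it stood at 212 and 189 against 195 and 193 CPM (-0.05, -0.21 to 0.11). Both pairs of groups overlapped. Ece1 in pericyte-like cells stood at 557 and 537 against 522 and 467 CPM (-0.14, -0.36 to 0.08), and Ednrb there at 37.8 and 44.4 against 28.0 and 22.2 CPM (-0.70, -1.47 to 0.07). Agt in smooth muscle-like cells stood at 7.09 and 6.55 against 3.90 and 3.54 CPM (-0.86, -1.74 to 0.02). These last 3 had no overlap between groups, which was so for 39.5% of genes tested in pericyte-like and 47.6% in smooth muscle-like cells.

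The Lama4 KO has 1 library, so its values are given with exact intervals for counting error and no test, and a gene was called past 2-fold when it also lay outside both WT libraries, with at least 10 UMIs in the KO library or in the summed WT libraries. In endothelial-like cells no member of 7 with that count passed, against 3.68% of all genes. Edn1 stood at 262 and 272 CPM in the WT libraries and at 354 CPM in the KO (TMM-scaled totals), a ratio of 1.33 (95% counting interval 1.29 to 1.37). The KO library lay above both WT libraries, and 76.5% of the 13793 genes with 10 UMIs lay outside theirs. In the arterial-marker clusters it was 639 and 601 against 753 CPM and in the other endothelial-like cells 164 and 169 against 259 CPM, on unscaled totals. Early response genes stood at 5750 and 5710 CPM in the WT and 5923 CPM in the KO, and their part in the result was not tested.

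The other endothelial members were near the WT level, with ratios of 0.92 (0.87 to 0.97) for Edn3, 1.02 (0.99 to 1.05) for Ece1 and 0.98 (0.89 to 1.09) for Ace. Ednrb was the exception, at 5.99 and 5.18 CPM in the WT and 10.1 CPM in the KO, a ratio of 1.81 (1.47 to 2.22). Of its 174 UMIs in the KO, 94 came from the 12 cells of the Plvap and Esm1 cluster. Without that cluster Ednrb stood at 4.44 and 4.14 against 4.69 CPM, a ratio of 1.09 (0.82 to 1.43).

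In the other classes of the Lama4 KO, receptors and precursors stayed within 2-fold except at low counts. Ednra stood at 231 and 289 CPM in the WT and 282 CPM in the KO of pericyte-like cells (ratio 1.09, 0.90 to 1.31) and at 167 and 167 against 143 CPM in smooth muscle-like cells (0.85, 0.74 to 0.97). Astrocyte-like cells held Ednrb at 282 and 332 against 319 CPM (1.04, 0.94 to 1.16) and Agt at 185 and 229 against 267 CPM (1.30, 1.15 to 1.46). The share of the Aqp4 and Aldoc cluster in the class was 42.7% and 51.7% (WT) against 62.9% (KO), and its part in the Agt value was not tested.

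Past 2-fold were Ednrb and Edn1 in smooth muscle-like cells (ratios 0.28, 0.05 to 0.88, and 0.49, 0.05 to 2.20) and Ace and Agt in microglia-like cells (3.99, 1.58 to 10.6, and 2.03, 0.84 to 4.72). They rested on 3, 2, 13 and 11 UMIs in the KO library, and 4.55% and 4.57% of all genes passed in these classes. For Edn1 in smooth muscle-like cells and Agt in microglia-like cells the interval includes no change. Choroid plexus-like cells, highest in Ace, numbered 27 and 25 in the WT libraries and 114 in the KO library. Their markers summed in microglia-like cells to 157 and 118 CPM (WT) against 1282 CPM (KO). The part of this RNA in the Ace value was not tested. No member passed in pericyte-like or astrocyte-like cells, where 6.20% and 4.90% of genes did. For scale, the KO library lay outside both WT libraries for 71.4% of genes in pericyte-like, 73.2% in smooth muscle-like, 68.4% in astrocyte-like and 77.0% in microglia-like cells. Edn1 in microglia-like cells was lower in the Lama4 KO, at 7.20 against 10.9 and 12.4 CPM (0.62, 0.45 to 0.84).

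**Figure D4:**
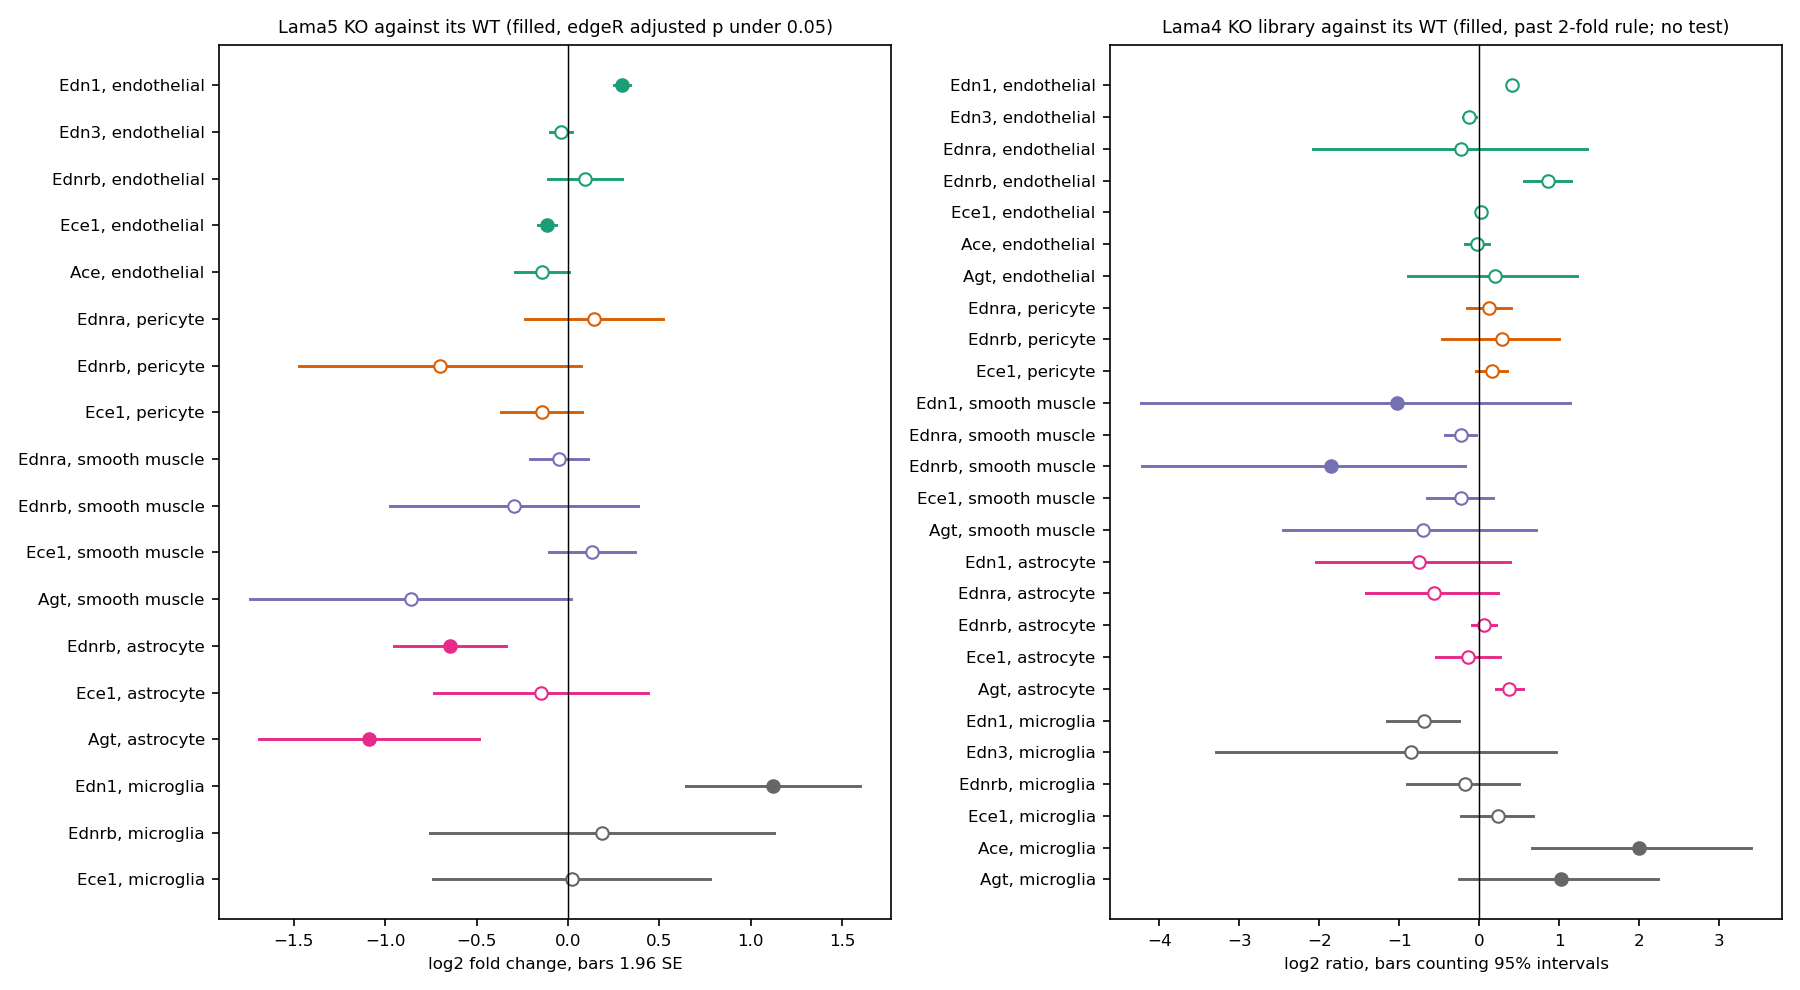
Log2 differences of the members from WT by cell class (colour): left, Lama5 KO with bars of 95% normal intervals from edgeR and filled points at adjusted p under 0.05; right, the Lama4 KO library against its summed WT libraries with 95% counting intervals, filled where past the 2-fold rule, with no test. Edn1 in endothelial-like cells lies above 0 in both panels (0.29 and 0.41), while Agt in astrocyte-like cells lies on opposite sides (-1.09 and 0.37).

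Endothelial-like cells of the WT pools were set against each other to show how far the experiments differ without a KO. All 5 members tested differed (edgeR, 55.4% of 13238 genes did). Edn1 was 1.60-fold higher in the WT of the Lama5 experiment (log2 fold change 0.68, SE 0.03, edgeR adjusted p = 6.88e-11), Edn3 1.54-fold (0.62), Ednrb 2.38-fold (1.25) and Ece1 1.20-fold (0.26), and Ace was lower (-0.35). The Edn1 difference between WT pools was larger than its difference in either KO. Experiment and pool cannot be told apart here, so these values do not measure the spread between pools alone. Early response genes summed to 5750 and 5710 CPM in the WT of the Lama4 experiment against 16316 and 16362 CPM. The arterial-marker clusters held 13.1% and 14.4% of the class against 27.2% and 25.6%. The part of either in these differences was not tested.

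Other genes of the 2 systems showed where the rest of the pathway lay, and the lists were chosen with earlier results of these data known. Of 22 further ligands, receptors and peptidases, 8 reached 20 CPM in their leading class. Pericyte-like cells led, without overlap with the next class, for the peptidases Enpep, at 361, 456 and 621 CPM (lowest, median and highest library), and Anpep, at 116, 133 and 208 CPM. In the Lama5 KO, 1 of the 8 tested in endothelial-like cells passed, Agtrap, whose product binds the angiotensin receptor (24.6 and 24.1 against 19.4 and 20.6 CPM, log2 fold change -0.29, edgeR adjusted p = 0.00369), and in microglia-like cells 1 of 7, Atp6ap2, the prorenin receptor (0.20). Of all genes, 8.21% were lower in the first class and 8.25% higher in the second. None passed in pericyte-like (5 tested), smooth muscle-like (10) or astrocyte-like cells (5).

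Of 26 genes downstream of the receptors, 25 were tested in endothelial-like cells and 5 were higher and 4 lower in the Lama5 KO, beside 10.3% and 8.21% of all genes. The higher ones included Gna13 (85.3 and 81.0 against 96.9 and 98.4 CPM, log2 fold change 0.23) and Rock2 (0.16), and the lower ones Gna11 (-0.15) and Mylk (-0.22), the kinase of myosin light chain. The median of the 25 was -0.02, beside -0.00219 over all genes tested. In smooth muscle-like cells, where Mylk (1878 to 2238 CPM) and Rock1 (991 to 1167 CPM) led, 1 of 23 passed, the nitric oxide receptor subunit Gucy1a1 (582 and 607 against 509 and 519 CPM, -0.21, edgeR adjusted p = 0.0138), where 1.38% of all genes were lower. Astrocyte-like cells had 5 of 21 higher and none lower, beside 9.86% and 7.50% of all genes, with a median of 0.17 beside -0.00798 over all genes. Their leading classes were microglia-like (Gna12 and Rgs2), perivascular macrophage-like (Arrb2), pericyte-like (Rgs5) and smooth muscle-like cells (Rock2). Microglia markers in astrocyte-like cells summed to 335 and 378 CPM (WT) against 1829 and 1282 CPM (KO), and their part was not tested. Microglia-like cells had 4 of 19 higher and none lower, beside 8.25% and 4.73%, with a median of 0.05 beside -0.0079. Pericyte-like cells had none of 19, with a median of 0.06 beside 0.00259.

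In the Lama4 KO, genes past the 2-fold rule in smooth muscle-like cells included Anpep of the first list (10.4 and 7.21 against 4.03 CPM) and Itpr2, the 1 of the 26 downstream genes (15.1 and 12.1 against 6.05 CPM), beside 4.55% of all genes. In pericyte-like cells 1 of each list passed, Prep and Arrb2, each with 3 UMIs in the KO library, beside 6.20% of all genes. None passed in endothelial-like, astrocyte-like or microglia-like cells.

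The genes whose levels ran most like each member were found by Pearson's r of log2(CPM + 1) over 42 class-by-library sums (6 classes in 7 libraries), among genes with at least 20 CPM in a class. These sums share libraries and depth, and r is a description. Edn1 ran most like Slc7a5 (r = 0.92), Slc2a1 and 4833403J16Rik, of which the first 2 are the amino acid and glucose transporters of the barrier. Edn3 ran with Clec14a (0.96), Gimap8 and Abcb1a, and Ace with Ifi44 (0.95), Bsg and Dpp4. Ece1 ran with Stard13 (0.97), Notch1 and Fzd6, and Ednra with Col1a2 (0.99), Plce1 and Arhgef17. Ednrb ran with Pla2g7 (0.94), Eps15 and Prr5, and Agt with Cntfr (0.95), Csdc2 and Ephx2. For Agtr1a the highest was Usp37 at 0.54, from the few UMIs it had in these classes.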

How the data were processed

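Cortices were digested to single cells, whose libraries used Chromium 3' v3 chemistry, per the labels' protocols. The deposited matrices hold raw UMI counts of each gene in each barcode, without normalisation. The authors made them with Cell Ranger 3.1.0, per the file headers, and with mm10 per the submitters' processing notes, which also name Seurat 3.1. Coordinates are from GENCODE M21 on the same build, GRCm38, 1-based, and promoters from RefSeq on GRCm38.p6, where all 8 genes except Agtr1a matched.

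The members, lists and tests were chosen with earlier results of these data known. Cells with at least 500 genes and under 15% mitochondrial UMIs were kept, doublets were removed by a simulated-doublet score at a rate of 0.8% per 1000 cells, and 47239 of 56961 barcodes stayed. Cells were clustered (2000 variable genes without the members and pathway lists, 30 components, 15 neighbours, Leiden in igraph 0.11.9) into 39 clusters, 5 of them unnamed. A class needs 3 markers at 2-fold and in 25% of cells. Stmn2, on both the arterial and the neuroblast list, was not counted against endothelial clusters, a choice made after seeing the data.

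UMIs were summed per class and library. The Lama5 KO and the WT pools were tested with the quasi-likelihood test of edgeR 4.0.16 (filterByExpr, TMM, Benjamini-Hochberg adjustment over all genes, threshold 0.05), checked on simulated data. Intervals cover counting error only, at 95%. The labels do not say whether the 2 libraries of a group are separate suspensions of its pool. The p-values measure the spread between libraries of a pool and not that between mice. Named genes were all members, pathway genes past the test or with the largest changes, at most 6 per class with values, and the 3 most like-patterned genes per member. DESeq2 1.42.0 and other settings were tried as alternatives. The values of 1 pathway gene are not reported here.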

Additional observations from a re-analysis of the deposited data

Results flagged for a closer look

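In 5 cases every library of the Lama5 KO lay on one side of its WT libraries while the Lama4 KO library lay on the other side of both of its own. These are among the members tested in the Lama5 KO, 5 in endothelial-, 3 in pericyte-, 4 in smooth muscle-, 3 in astrocyte- and 3 in microglia-like cells. The share of all genes with this joint pattern was not counted, so whether 5 cases are more than usual is not known. The differences between the experiments were not tested, since the Lama4 KO has 1 library. A single library outside 2 others is common, at 68.4% (astrocyte-like) to 77.0% (microglia-like) of genes over these classes. Groups of the Lama5 experiment without overlap made up 39.5% (pericyte-like) to 58.1% (astrocyte-like) of genes.

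Ece1 in endothelial-like cells changed by -0.12 (log2 of summed, scaled counts) in the Lama5 KO and by 0.026 in the Lama4 KO. Ece1 in smooth muscle-like cells changed by 0.13 and -0.23. Ednrb in pericyte-like cells changed by -0.71 and 0.28, from 8 to 27 UMIs per library. Agt in astrocyte-like cells changed by -1.09 and 0.37. The share of the Aqp4 and Aldoc cluster moved the same way (from 44.6% and 44.0% to 20.9% and 27.3%, and from 42.7% and 51.7% to 62.9%). Its part in the Agt changes was not tested. Within that cluster Agt was also lower in the Lama5 KO, without passing, as given above. Edn1 in microglia-like cells changed by 1.13 and -0.69. The counting interval of the Lama4 ratio includes no change for Ece1 in endothelial-like (0.99 to 1.05) and smooth muscle-like cells (0.64 to 1.13). It also does for Ednrb (0.72 to 2.00), but not for Agt (1.15 to 1.46) or Edn1 (0.45 to 0.84).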

How the results depend on the processing

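Members called in the Lama5 KO stayed at the main count under RLE scaling, no low-count filter, 1 fit of all 7 libraries and doublets kept. In endothelial-like cells the count was 2, and 4 on totals without TMM and 1 in the arterial-marker clusters (both added after seeing the data). In astrocyte-like cells 2 became 0 with DESeq2, at clustering resolution 2 and in the clusters over or under 3000 UMIs (added after seeing the data), and 1 with the stricter cell filter. In microglia-like cells 1 became 0 with DESeq2, which gave Edn1 no adjusted p. Leaving out 1 library gave 0 to 2 in astrocyte-like cells (0 without the first KO library, 1 without the first WT library) and 0 to 1 in microglia-like cells (0 without the first WT library). For the Lama4 KO, 2 members past 2-fold in smooth muscle-like cells became 1 without either WT library. In astrocyte-like cells 0 became 1 (Edn1) with the stricter filter and 0 to 1 without a WT library. In microglia-like cells 2 became 1 with doublets kept, with the stricter filter, and 1 to 2 without a WT library. Members with a leading class past the test were 6 of 8 at resolution 2, with doublets kept, with the stricter filter and with a pseudocount of 5 CPM, and all 5 tested members stayed called between the WT pools. Over all genes, DESeq2 called 952 against 2430 (endothelial), 439 against 1516 (astrocyte), 460 against 1254 (microglia), 198 against 564 (smooth muscle), 6 against 16 (pericyte) and 4742 against 7333 (WT pools). Without the low-count filter smooth muscle-like cells gave 95 and pericyte-like cells 47. Resolution 2 gave 212 in astrocyte-like and 10 in pericyte-like cells, and the arterial-marker clusters gave 917. The astrocyte-like clusters over 3000 UMIs gave 43 and those under 3000 gave 521. Leaving out 1 library gave 734 to 1692 in astrocyte-like, 26 to 33 in pericyte-like and 360 to 535 in smooth muscle-like cells. The causes were not tested. Same-numbered libraries did not deviate together (correlation -0.0144 to 0.036), and a replicate block left 2, 0, 0, 2 and 1 members called in endothelial-, pericyte-, smooth muscle-, astrocyte- and microglia-like cells, with 30 against 16 genes in pericyte-like cells.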
